A study of Mus musculus with 12 samples.

Results

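The genes described here are 10 listed targets and partners of the transcription factor p53, read in unfractionated bone marrow of mice that lack the Fanconi anemia genes Fancc, Fancg or both. The members are Cdkn1a, Mdm2, Ccng1, Trp53inp1, Bbc3, Bax, Phlda3, Zmat3, Pmaip1 and Trp53, listed by name as known p53 targets, with earlier results of these data known, and matched by gene symbol. A member was measured where a probe set of the array carried its symbol and no other, which held for 8 of the 10. All 8 passed the filter on dim probe sets and were among the 11906 genes tested, of 18193 genes with such a probe set. Bax and Trp53 had no probe set under a single symbol and were not analysed here. The groups were 3 wild-type C57Bl/6 mice, 3 mice nullizygous for Fancc (Fancc-/-), 3 nullizygous for Fancg (Fancg-/-) and 3 nullizygous for both (double knockout), with 1 Affymetrix array per mouse and no pooling. The labels give no age, no sex, no treatment and, for the knockouts, no strain. Values are log2 RMA signals, the authors' background-adjusted and quantile-normalized summary of each probe set, so a difference of 1 is a 2-fold change. The number of arrays, 3 per group, limits the precision.

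p53 is a transcription factor that cells stabilise after DNA damage. Its targets include inhibitors of the cell cycle, inducers of cell death and the ubiquitin ligase Mdm2, which in turn marks p53 for degradation. The Fanconi anemia proteins act in the repair of DNA crosslinks, and p53 and its target p21 (the product of Cdkn1a) are known to be active in the marrow failure of patients with Fanconi anemia. The question here is how large a p53 target response the whole marrow of these mice carried, with the interval around each estimate.

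In brief, the double knockout had higher Cdkn1a, Mdm2 and Bbc3 on all 3 arrays than any wild-type array had. Of all tested genes, 12.5% were likewise wholly higher there, and 29.3% did not overlap in either direction. By the test across all genes 1 of the 8, Bbc3, passed, where 5.28% of all genes did. That call was close to the threshold and was lost in most fits that left out an array. Ccng1, Trp53inp1, Zmat3 and Pmaip1 had estimates near or below 0 in the double knockout against wild type. No member passed in Fancc-/- or Fancg-/-. Ccng1, Trp53inp1, Phlda3 and Zmat3 had their highest level of all 12 arrays on Fancc-/- replicate 3. How many of all tested genes peaked on that array was not counted, so these peaks have no background. The array stood apart for many genes: 1.87% of all tested genes were more than 1 log2 unit above the other Fancc-/- arrays, and 3.86% were that far below. For 41 further p53 targets its median gap was 0.04. The marrow was not fractionated, so a change in expression per cell cannot be told apart from a change in the share of a cell type.

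The arrays had medians between 4.79 and 4.87. Correlations between arrays of a group over the tested genes were at least 0.973 in each group but Fancc-/-, where the lowest was 0.954. The sex-linked RNAs differed with genotype. Xist, the RNA that silences an X chromosome in female cells, was at 11.2 to 12.2 on the wild-type and Fancc-/- arrays and at 5.99 to 7.39 in the double knockout, while the Y-linked Eif2s3y was at 2.89 to 3.30 and at 8.81 to 9.35. Fancg-/- replicate 2 read like the double knockout, and replicates 1 and 3 had signal for both RNAs (Xist 11.31 and 10.75, Eif2s3y 7.64 and 5.78). The cause of these mixed marks was not tested, and the Fancg-/- estimates rest in part on these arrays. For the double knockout, genotype and sex cannot be told apart from these arrays. The probe set of Fancg read 6.84 ± 0.03 (SD, n = 3) on wild-type arrays, 6.40 ± 0.35 in Fancg-/- and 5.74 ± 0.11 in the double knockout, and that of Fancc 6.04 ± 0.14 on wild-type and 6.06 ± 0.11 on Fancc-/- arrays. The sources used here do not place these probe sets within or outside the deleted exons. Fancg-/- replicate 3 was made from 0.91 µg of RNA and all other arrays from 2 µg.

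Cdkn1a, which encodes the cyclin-dependent kinase inhibitor p21, was at 8.39, 9.69 and 9.54 on wild-type replicates 1, 2 and 3. It read 8.90, 8.50 and 9.90 in Fancc-/-, 10.04, 9.58 and 8.66 in Fancg-/-, and 10.00, 10.53 and 10.41 in the double knockout. The double-knockout arrays were all above the wild-type and Fancc-/- arrays, while the other groups each spread over more than 1 log2 unit and overlapped. The double knockout differed from wild type by 1.11 ± 0.43 (SE), a 2.15-fold difference with a 95% confidence interval of 1.12 to 4.14 (limma adjusted p = 0.146), and did not pass. The differences were -0.11 (interval -1.05 to 0.84) in Fancc-/- and 0.22 (-0.72 to 1.16) in Fancg-/-. A further Cdkn1a probe set gave 1.00 ± 0.42 in the double knockout and -0.12 and 0.13 in Fancc-/- and Fancg-/-. The 2 probe sets thus gave like estimates in each knockout.

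Mdm2, the ubiquitin ligase that limits p53, was at 9.36, 9.72 and 9.59 in wild type. It read 9.07, 9.25 and 9.71 in Fancc-/-, 9.70, 9.38 and 9.48 in Fancg-/-, and 9.78, 10.31 and 10.40 in the double knockout. Double-knockout replicate 1 lay just above the highest array of the other groups and replicates 2 and 3 lay well above them. The double knockout differed from wild type by 0.61 ± 0.20 (SE), or 1.52-fold with an interval of 1.13 to 2.05 (limma adjusted p = 0.0892), and did not pass. Without double-knockout replicate 1 the difference was 0.80 and passed (adjusted p = 0.0165), in a fit that called 15.6% of all genes. In Fancc-/- the difference was -0.21 (interval -0.64 to 0.22) and in Fancg-/- -0.03 (-0.47 to 0.40), so rises of more than 1.16-fold and 1.32-fold lay outside those intervals on this probe set. Another Mdm2 probe set gave 0.74 ± 0.22 in the double knockout. Its means were 8.67 in Fancc-/- and 8.75 in Fancg-/-, beside 8.70 in wild type. The remaining one, between 3.38 and 3.77, was below the array median on every array.

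Ccng1, which encodes cyclin G1, a p53-induced regulator of Mdm2 activity, was at 8.40, 8.35 and 8.22 in wild type. It read 8.60, 8.41 and 9.24 in Fancc-/-, 8.50, 8.26 and 8.37 in Fancg-/-, and 8.43, 8.09 and 7.99 in the double knockout. On this probe set all 3 Fancc-/- arrays were above wild type, replicate 2 by 0.01, and the double knockout reached both above and below it. The difference was 0.42 ± 0.20 (SE) in Fancc-/- (limma adjusted p = 0.259) and 0.18 without replicate 3 of that group. In the double knockout it was -0.15 with an interval of -0.58 to 0.27, so a rise of more than 1.21-fold lay outside the interval on this probe set. The other Ccng1 probe sets gave 0.43 (interval -0.26 to 1.12) and -0.11 (-0.70 to 0.47) there, so the probe sets differ in sign, and on the first of these the 3 double-knockout arrays were above all wild-type arrays. Fancc-/- replicate 2 was at 7.66 on the first, within the wild-type range of 7.56 to 7.97. On the second it was at 7.33, below the wild-type range of 7.36 to 7.69.

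The windows around the annotated starts of these 3 genes are shown because p53 is known to bind the regulatory DNA of its targets, and because Cdkn1a and Mdm2 were high together in the double knockout. The sequences are RefSeq's on GRCm38.p6, from 250 bases before to 50 bases after the start, 5′ to 3′ along the gene. Capitals mark each exact match to the half-site of the p53 response element, a motif of 10 bases that is its own reverse complement. The Cdkn1a window is chr17:29090729-29091028 on the plus strand, the Mdm2 window chr10:117710709-117711008 on the minus strand and the Ccng1 window chr11:40755237-40755536 on the minus strand.
Cdkn1a: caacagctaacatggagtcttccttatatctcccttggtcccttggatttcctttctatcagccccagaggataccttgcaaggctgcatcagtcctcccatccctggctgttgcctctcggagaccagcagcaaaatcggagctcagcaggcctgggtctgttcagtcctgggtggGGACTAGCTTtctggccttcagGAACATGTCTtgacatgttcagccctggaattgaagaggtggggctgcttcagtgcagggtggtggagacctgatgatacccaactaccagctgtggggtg
Mdm2: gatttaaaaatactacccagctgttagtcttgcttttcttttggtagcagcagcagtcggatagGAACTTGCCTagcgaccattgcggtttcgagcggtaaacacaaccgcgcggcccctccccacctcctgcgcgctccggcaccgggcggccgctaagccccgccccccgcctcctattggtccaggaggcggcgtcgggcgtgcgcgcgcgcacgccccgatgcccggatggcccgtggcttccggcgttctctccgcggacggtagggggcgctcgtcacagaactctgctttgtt
Ccng1: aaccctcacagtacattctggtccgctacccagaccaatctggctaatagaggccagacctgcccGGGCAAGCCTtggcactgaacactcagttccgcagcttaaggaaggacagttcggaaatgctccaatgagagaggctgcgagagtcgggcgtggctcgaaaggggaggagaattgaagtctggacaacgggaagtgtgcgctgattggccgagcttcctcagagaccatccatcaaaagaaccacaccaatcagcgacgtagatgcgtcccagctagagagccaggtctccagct

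In the Cdkn1a window the half-sites are GGACTAGCTT at position -73 and GAACATGTCT at -51, counted from the start to the first base of the match. Mdm2 had 1 half-site, GAACTTGCCT at -186, and Ccng1 had 1, GGGCAAGCCT at -185. The other Cdkn1a window and the 4 windows of Bbc3 and Phlda3 held none. Windows of 5 of the 8 measured genes were used, and Trp53inp1, Zmat3 and Pmaip1 are not among them. Of their 8 windows, 3 (37.5%) held a half-site, against 8.36% of all 32851 windows of that length. The pair of exact matches in the Cdkn1a window, with at most 13 bases between its half-sites, was the only one among the 8, and 0.0731% of all windows held such a pair. The 10 bases directly after GAACATGTCT, tgacatgttc, miss the motif only at their first base, where it asks for A or G. They were therefore neither marked nor counted, and the search does not show that a pair without a spacer is absent there. A match is a description of letters and not a site of binding.

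**Figure D1:**
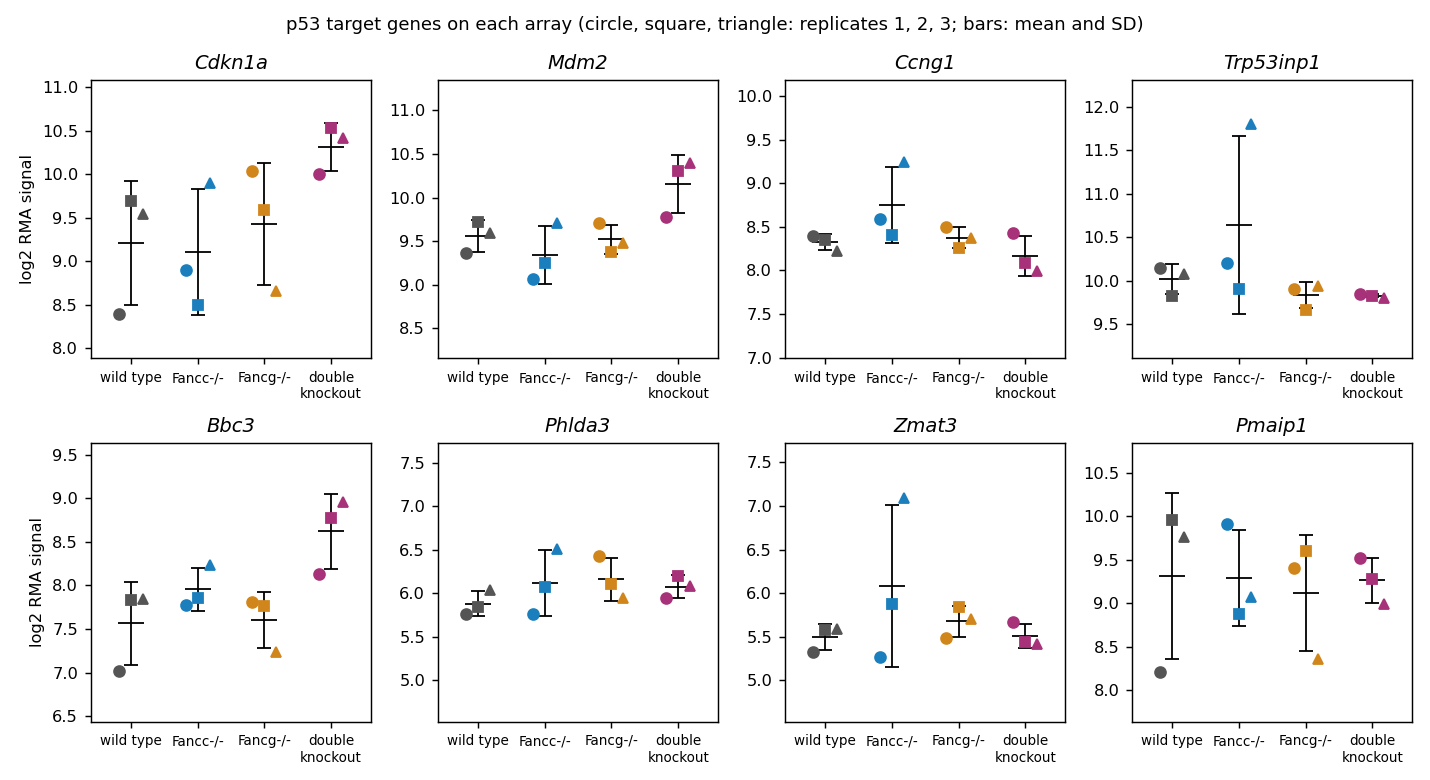
Log2 RMA signal (vertical axes, all of the same span) of the 8 measured genes on every array by genotype, with circles, squares and triangles for replicates 1, 2 and 3 and bars for the mean and SD of 3 mice. Cdkn1a, Mdm2 and Bbc3 lie above wild type on all double-knockout arrays, and Fancc-/- replicate 3 stands above its group for Ccng1, Trp53inp1 and Zmat3.

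Bbc3 encodes Puma, a BH3-only protein through which p53 starts apoptosis. It was at 7.02, 7.83 and 7.85 in wild type, 7.77, 7.86 and 8.24 in Fancc-/-, 7.81, 7.77 and 7.23 in Fancg-/-, and 8.13, 8.77 and 8.96 in the double knockout. All double-knockout arrays were above all wild-type and Fancg-/- arrays, and wild-type replicate 1 was the lowest of the 12. Bbc3 rose in the double knockout by 1.06 ± 0.27 (SE), or 2.08-fold with an interval of 1.38 to 3.14 (limma adjusted p = 0.0475). That call was close to the threshold of 0.05. It held without double-knockout replicate 1 (adjusted p = 0.00909) and was lost without wild-type replicate 1, 2 or 3 (0.128, 0.0967 and 0.0955) or double-knockout replicate 2 or 3 (0.173 and 0.191), with differences of 0.78 to 1.30 throughout. With Xist as a covariate the Bbc3 difference was 0.74 (adjusted p = 1), and 0 of all genes were called in the double knockout. The differences in Fancc-/- and Fancg-/- were 0.39 (interval -0.20 to 0.99) and 0.04 (-0.55 to 0.63).

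Pmaip1 encodes Noxa, another BH3-only protein. It was at 8.21, 9.96 and 9.76 in wild type, 9.91, 8.88 and 9.07 in Fancc-/-, 9.40, 9.60 and 8.36 in Fancg-/-, and 9.52, 9.28 and 8.99 in the double knockout. Every knockout array lay within the wild-type range, which was set by replicate 1 at the low end and replicate 2 at the high end. The differences from wild type, in the order Fancc-/-, Fancg-/- and double knockout, were -0.02, -0.19 and -0.05, with limma adjusted p of 0.983, 0.987 and 0.964. The double-knockout interval, -1.03 to 0.93 or 0.490-fold to 1.91-fold, is too wide to leave out a change of the size seen for Mdm2. Bbc3 and Pmaip1, both known as p53-induced death genes, thus had a call in 1 case and an estimate near 0 in the other, and the difference between them was not tested.

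Trp53inp1, a p53-induced gene of autophagy and stress-related cell death, was at 10.15, 9.83 and 10.08 in wild type. It read 10.20, 9.90 and 11.80 in Fancc-/-, 9.91, 9.66 and 9.93 in Fancg-/-, and 9.84, 9.83 and 9.81 in the double knockout. The double-knockout arrays lay within 0.04 of each other, and 1 array, Fancc-/- replicate 3, stood far above the other 11. The difference was 0.62 ± 0.36 (SE) in Fancc-/- (limma adjusted p = 0.368) and 0.03 (interval -0.27 to 0.33) without that array. It was -0.18 in Fancg-/- and -0.19 in the double knockout, where the interval of the fold was 0.508 to 1.51. A further probe set, at 7.18, 6.62 and 9.22 in Fancc-/-, gave 0.79 ± 0.47 there and -0.03 in the double knockout.

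Zmat3 encodes a zinc finger RNA-binding protein that is a direct p53 target. It was at 5.33, 5.58 and 5.58 in wild type, 5.27, 5.88 and 7.09 in Fancc-/-, 5.49, 5.84 and 5.70 in Fancg-/-, and 5.67, 5.44 and 5.41 in the double knockout. Here too Fancc-/- replicate 3 was above all other arrays, while replicate 1 of that group was the lowest of the 12. The difference was 0.58 ± 0.33 (SE) in Fancc-/- (limma adjusted p = 0.360) and 0.08 without replicate 3. It was 0.18 in Fancg-/- and 0.01 (interval -0.72 to 0.74) in the double knockout.

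Phlda3, a p53 target that dampens Akt signalling at the membrane, was at 5.76, 5.84 and 6.04 in wild type. It read 5.77, 6.07 and 6.51 in Fancc-/-, 6.43, 6.11 and 5.94 in Fancg-/-, and 5.94, 6.20 and 6.09 in the double knockout. Each knockout group overlapped wild type. The differences were 0.24, 0.28 and 0.20 in that order, each ± 0.19 (SE), and rises of more than 1.56-fold, 1.61-fold and 1.51-fold lay outside their intervals. Phlda3 was the gene whose 3 knockout estimates were most alike, and none passed (limma adjusted p = 0.512, 0.874 and 0.582).

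**Figure D2:**
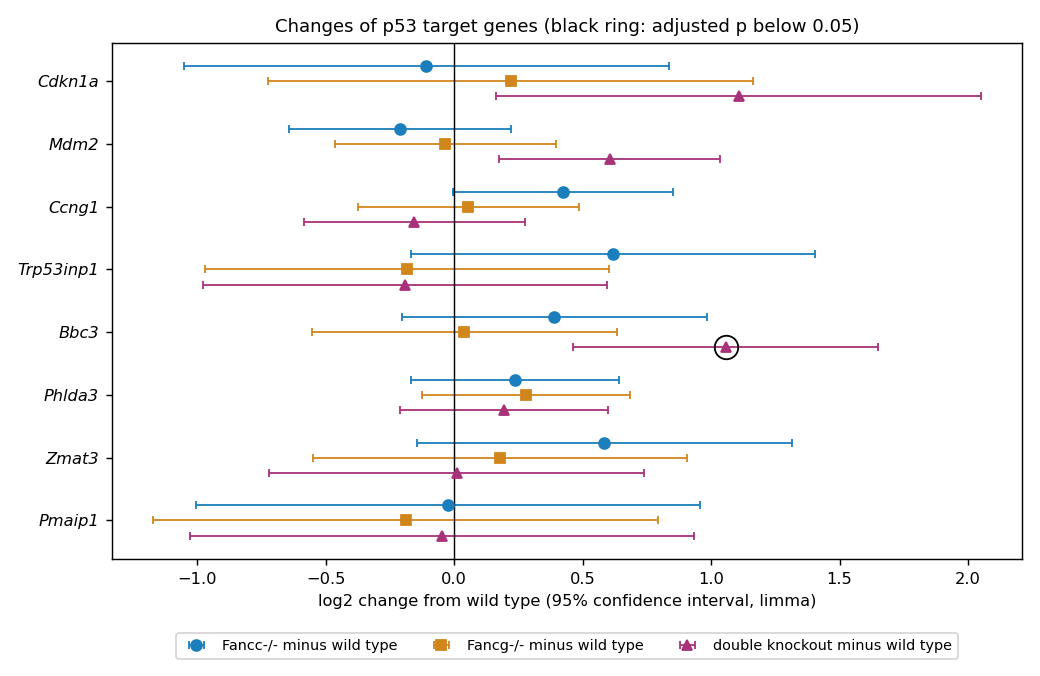
Log2 change from wild type (horizontal axis) with its 95% confidence interval from limma for the 8 measured genes in Fancc-/- (circles), Fancg-/- (squares) and the double knockout (triangles), 3 mice per group. The intervals of Cdkn1a, Mdm2 and Bbc3 in the double knockout lie above 0, and the ring marks Bbc3, the 1 estimate with an adjusted p below 0.05.

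Counted over the 8 measured genes, 1 rose and 0 fell in the double knockout against wild type, where 5.28% of all tested genes were called and 2.27% were called higher. By limma 0 passed in Fancc-/-, where 4.54% of all genes were called, and 0 in Fancg-/-, where 0.0504% were. At an unadjusted p below 0.05 there were 3 of 8 in the double knockout against 24.2% of all tested genes, 0 in Fancc-/- against 19.8% and 0 in Fancg-/- against 7%. The double knockout and wild type did not overlap for 3 of the 8 (Cdkn1a, Mdm2 and Bbc3), against 29.3% of all tested genes. Fancc-/- and wild type did not overlap for 1 (Ccng1, on its probe set of highest mean only), against 24.2%, and Fancg-/- and wild type for 0, against 17.3%. The 8 differences had a median of 0.31 for Fancc-/-, 0.05 for Fancg-/- and 0.10 for the double knockout, beside medians of -0.01, 0.01 and -0.01 over all tested genes. Without Fancc-/- replicate 3 the Fancc-/- median was 0.06. For Fancg-/- the median was 0.22 with replicate 2 alone (an alternative chosen after seeing the data), -0.07 without replicate 1, 0.18 without replicate 3, and -0.13 without wild-type replicate 1. The double-knockout median was 0.03 without wild-type replicate 1 and 0.23 without replicate 2 or 3 of wild type. The 3 comparisons share the wild-type arrays.

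The 3 knockouts taken as 1 mean against wild type gave 0 calls among the members by limma where 2.94% of all genes were called, and 1 at an unadjusted p below 0.05, against 18.4% of all genes. That gene was Bbc3, at 0.50 ± 0.22 (SE), or 1.41-fold with an interval of 1.01 to 1.97 (adjusted p = 0.261). It was 0.22 without wild-type replicate 1. The other 7 estimates ran from -0.09 for Pmaip1 to 0.41 for Cdkn1a, and the median of the 8 was 0.18, or 0.07 without Fancc-/- replicate 3.

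Fancc-/- replicate 3 differed from its own group across most of the members. Set against the mean of the other 2 Fancc-/- arrays, it was higher by 1.75 for Trp53inp1 (3.37-fold), 1.52 for Zmat3 (2.87-fold), 1.20 for Cdkn1a (2.30-fold) and 0.74 for Ccng1 (1.67-fold). Among all tested genes, 99.7%, 99.4%, 98.8% and 96.4% had a smaller gap on that array. Phlda3, Mdm2 and Bbc3 were higher by 0.59, 0.55 and 0.42, and Pmaip1 was lower (-0.33). It was above every wild-type array for 6 of the 8 members, compared with 2 on replicate 1 and 4 on replicate 2 of Fancc-/-. Double-knockout replicates 1, 2 and 3 were so for 5, 4 and 4. The share of all tested genes above every wild-type array was not counted for single arrays, so these counts have no background. This is 1 mouse, so the gaps carry no test.

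The same array had the lowest mean level of its group for several lists of cell type markers. Stem and progenitor markers (9 of 9 measured) averaged 6.64 on it, against 7.29 and 7.22 on the other Fancc-/- arrays and 7.65 to 7.79 in wild type. T and NK cell markers (8 of 9 measured) averaged 6.09, against 6.87 and 7.09, and 7.35 to 7.56 in wild type. Megakaryocyte and platelet markers averaged 6.91, against 7.83 and 8.07, and B cell markers 5.87, against 5.97 and 6.37. Of 41 further p53 targets it was more than 1 log2 unit above the other Fancc-/- arrays for 3, against 1.87% of all genes: the membrane protein gene Perp (7.00 against 5.28), the mTORC1 inhibitor gene Ddit4 (9.88 against 8.56) and the thiamine transporter gene Slc19a2 (7.77 against 6.49). It was lower by more than 1 for Pml (7.15 against 8.46), against 3.86% of all genes. These 4 genes are named for their gaps, after their values were seen, and the median gap of the 41 was 0.04. Such gaps were not particular to this array. Double-knockout replicate 1 was more than 1 above its group for 4 of the 41 (2.27% of all genes), and wild-type replicate 2 for 3 (0.361%). The part of the cell types in these gaps was not tested.

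**Figure D3:**
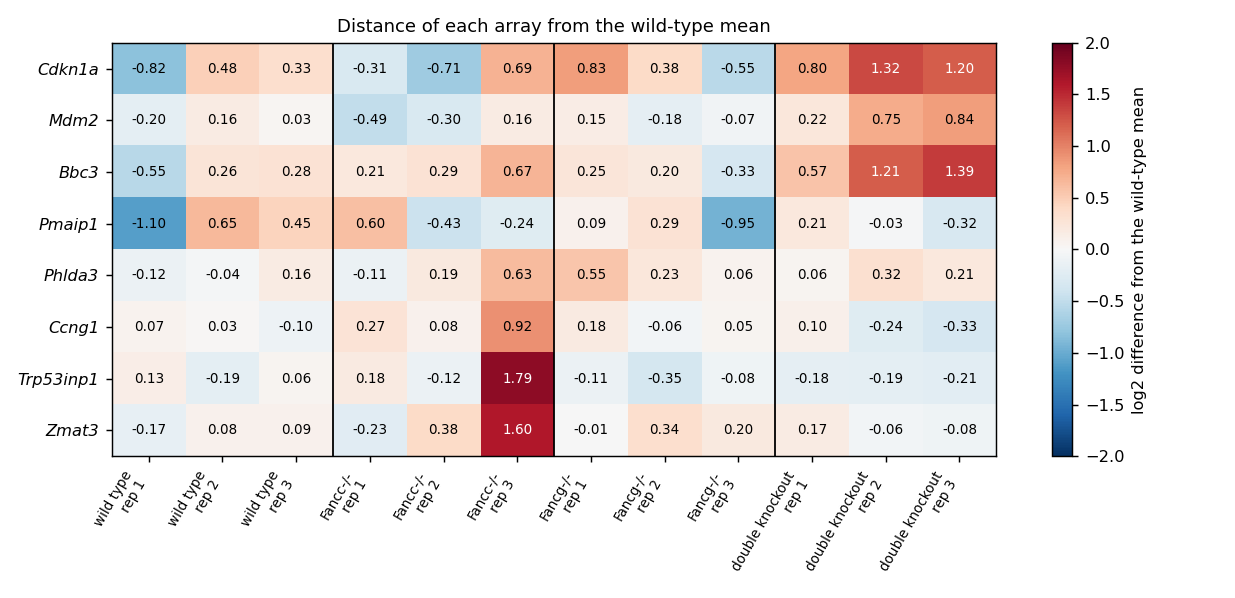
Log2 difference of each array (columns, by genotype) from the wild-type mean for the 8 measured genes (rows), in red above and in blue below. Fancc-/- replicate 3 is red for Trp53inp1 (1.79) and Zmat3 (1.60), the double knockout is red for Cdkn1a, Bbc3 and Mdm2, and wild-type replicate 1 is blue for Cdkn1a (-0.82) and Pmaip1 (-1.10).

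Wild-type replicate 1 bore on several estimates, since it was the lowest of all 12 arrays for 4 members, Cdkn1a, Bbc3, Phlda3 and Pmaip1. The share of all tested genes with their lowest level on that array was not counted. It was below the mean of the other wild-type arrays by 1.64 for Pmaip1, 1.23 for Cdkn1a and 0.82 for Bbc3. Among all tested genes, 0.118%, 0.361% and 1.05% lay further below on that array. Fancg-/- replicate 3, the array with less RNA input, was below the other Fancg-/- arrays for the same genes, by 1.14, 1.15 and 0.56. Without wild-type replicate 1 the double-knockout difference was 0.70 for Cdkn1a, 0.51 for Mdm2 and 0.78 for Bbc3, and none of them passed. Megakaryocyte and platelet markers (6 of 7 measured) averaged 8.34 on wild-type replicate 1 and 6.79 and 6.56 on replicates 2 and 3. The part of RNA input or of cell types in these low values was not tested.

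The double knockout was also set against each single knockout. Its sex marks differ from those of Fancc-/-, so there the loss of the second gene cannot be told apart from sex. Fancg-/- replicates 1 and 3 carry both marks. Against Fancc-/-, Mdm2 differed by 0.82 ± 0.20 (SE; limma adjusted p = 0.0845), Cdkn1a by 1.21 ± 0.43 (adjusted p = 0.168) and Bbc3 by 0.67 ± 0.27 (adjusted p = 0.211). Ccng1 was lower by 0.58 ± 0.20 (adjusted p = 0.154) and Trp53inp1 by 0.81 ± 0.36 (adjusted p = 0.244). By limma 0 of the 8 passed, where 0.0084% of all genes were called, and 5 had an unadjusted p below 0.05, against 19.7% of all genes. Groups did not overlap for 3 of 8, Cdkn1a, Mdm2 and Trp53inp1, against 17.8% of all genes. Mdm2 passed without double-knockout replicate 1 (1.01, adjusted p = 0.00769) and without Fancc-/- replicate 3 (1.00, adjusted p = 0.0274), fits that called 10.8% and 2.75% of all genes. Without that Fancc-/- array Trp53inp1 differed by -0.23 and Ccng1 by -0.33. With Xist as a covariate the differences from Fancc-/- were 0.85 for Mdm2 (interval -0.09 to 1.79), 1.13 for Cdkn1a and 0.37 for Bbc3. None of these passed.

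Against Fancg-/-, Bbc3 differed by 1.02 ± 0.27 (SE; limma adjusted p = 0.178) and Mdm2 by 0.64 ± 0.20 (adjusted p = 0.208). Cdkn1a was at 0.89 ± 0.43, with an interval of -0.06 to 1.83. By limma 0 of the 8 passed, where 0% of all genes were called, and 2 had an unadjusted p below 0.05, against 14.4% of all genes. Groups did not overlap for Mdm2 and Bbc3, 2 of 8, against 19.3% of all genes. Without double-knockout replicate 1 both passed, Bbc3 at 1.26 (adjusted p = 0.0160) and Mdm2 at 0.83 (adjusted p = 0.0217), in a fit that called 8.34% of all genes. The remaining 5 members differed from Fancg-/- by -0.21 to 0.14.

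Double-knockout replicate 1 was the lowest of its group for Cdkn1a, Mdm2 and Bbc3, by 0.47, 0.57 and 0.73 against the mean of the other 2. For Ccng1, Trp53inp1, Zmat3 and Pmaip1 it was the highest of its group. Its mean level over the erythroid markers (11 of 14 measured) was 10.19, against 9.51 and 9.69 on the others. It also stood apart for T and NK cell markers (7.39 against 6.88 and 6.76) and for stroma, bone and vessel markers (4.90 against 6.05 and 5.68). The part of these cell types in the members' values was not tested.

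A list of 46 further p53 targets, of which 41 were tested, moved in both directions in the double knockout. In it 3 rose and 4 fell, beside the 5.28% of all genes called, and the median difference was -0.12. Ppm1d, a phosphatase that turns off the p53 response, rose from 7.93, 7.76 and 7.69 in wild type to 8.17, 8.58 and 8.80 (0.72 ± 0.15 SE, limma adjusted p = 0.0245). The executioner caspase gene Casp6 rose from a mean of 8.16 to 8.85 (0.69 ± 0.14, adjusted p = 0.0206), and Rps27l, a ribosomal-protein-like p53 target, from 10.74 to 11.11 (0.38 ± 0.09, adjusted p = 0.0328). These 3, already picked as called higher, were higher on each double-knockout array than on any wild-type array, as were 12.5% of all tested genes. Over the mean of the Casp6 probe sets the difference was 0.40 and did not pass (limma adjusted p = 0.0512). On the Fancc-/- arrays Ppm1d read 8.25, 8.40 and 8.29, also above wild type, and the difference there did not pass (0.52 ± 0.15, adjusted p = 0.0794).

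The genes that fell in the double knockout were led by Ephx1, which encodes microsomal epoxide hydrolase. It went from 7.27, 6.82 and 7.02 in wild type to 5.81, 5.91 and 5.91 (-1.16 ± 0.14 SE, limma adjusted p = 0.00504). Rrm2b, the p53-inducible subunit of ribonucleotide reductase, fell by 1.10 ± 0.20 (adjusted p = 0.0176). The DNA damage recognition gene Xpc fell by 0.84 ± 0.18 (adjusted p = 0.0243) and the inflammatory caspase gene Casp1 by 0.71 ± 0.17 (adjusted p = 0.0373). Ephx1 passed whichever of the 6 arrays was left out, but with Xist as a covariate, which follows sex and genotype alike, none of the 7 passed and Ephx1 was at -1.27 (adjusted p = 1). The count of 7 was 3, 1 and 2 without wild-type replicate 1, 2 or 3, where 1.13%, 0.134% and 0.47% of all genes were called. It was 15, 1 and 1 without double-knockout replicate 1, 2 or 3, where 15.6%, 0.496% and 0.16% were called.

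**Figure D4:**
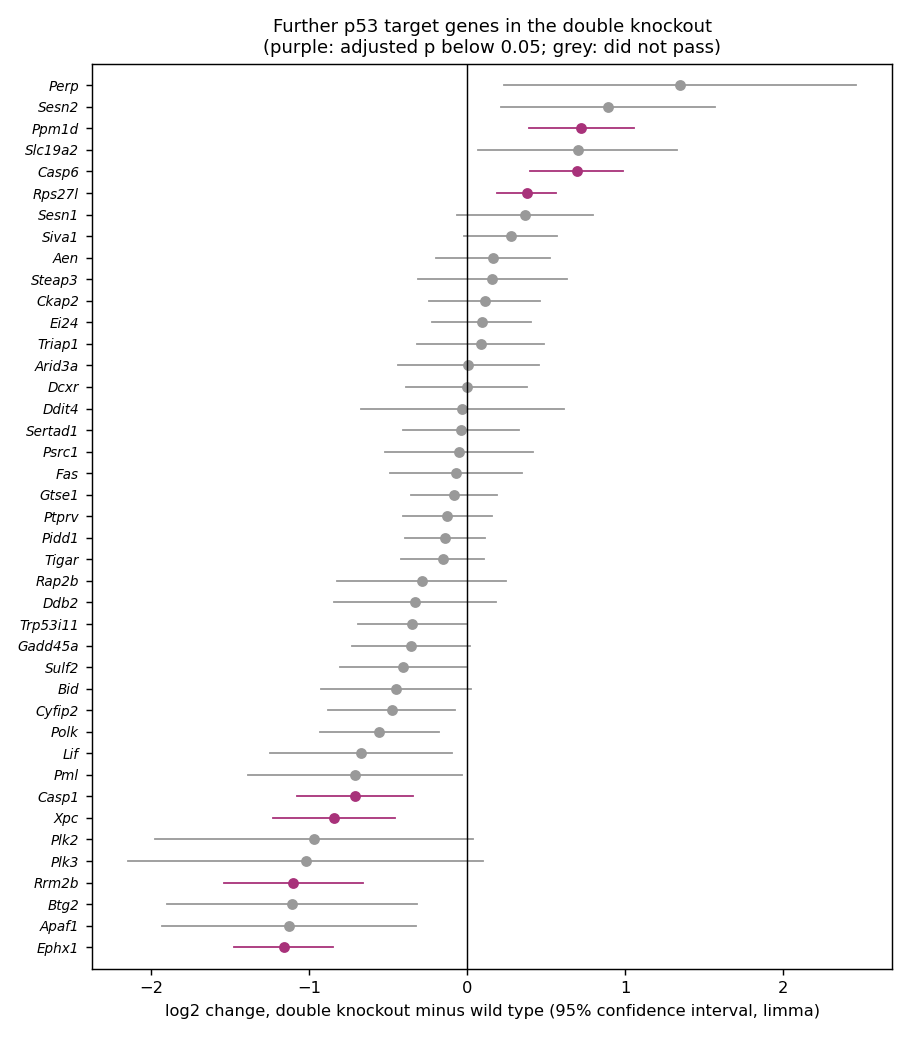
Log2 change in the double knockout against wild type (horizontal axis, 95% confidence interval from limma, 3 mice per group) of the 41 tested genes of the list of further p53 targets. The purple genes passed at an adjusted p below 0.05: Ppm1d, Casp6 and Rps27l above 0, and Casp1, Xpc, Rrm2b and Ephx1 below 0.

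In Fancc-/- 0 of the 41 further targets rose and 2 fell, beside 4.54% of all genes, with a median of -0.10. Ephx1 fell by 1.31 ± 0.14 (SE, limma adjusted p = 0.00103), with arrays at 5.53, 5.89 and 5.75, and Rrm2b by 0.82 ± 0.20 (adjusted p = 0.0398). Ephx1 passed with any of the 6 arrays left out, and Rrm2b in 1 of 6 such fits. In Fancg-/- 0 of 41 passed by limma, beside 0.0504% of all genes, and 5 had an unadjusted p below 0.05, against 7% of all genes. There Ephx1 read 6.19, 6.26 and 6.48, below every wild-type array. Over the mean of the knockouts Ephx1 and Rrm2b were the 2 calls (-1.07 ± 0.12 and -0.85 ± 0.16), and the count was 6 without double-knockout replicate 1 and 1 without wild-type replicate 2. B cell markers (11 of 12 measured) fell beside these genes: their mean level was 8.54 to 9.03 on wild-type arrays, 5.87 to 6.37 with Fancc missing, 6.46 to 8.17 with Fancg missing and 6.37 to 6.44 with both missing, and 10 of 11 passed in Fancc-/- and in the double knockout. Erythroid markers were at 8.98 to 9.32 in wild type and at 9.51 to 10.46 over all knockout arrays. The part of these cell types in the changes of the p53 targets was not tested.

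Regulators of p53 and DNA damage kinases, 20 tested of 23 listed, held 2 calls in comparisons with wild type. Mdm4, the Mdm2 partner that inhibits p53, fell in the double knockout from 6.98, 7.68 and 7.24 in wild type to 6.85, 6.00 and 5.91 (-1.05 ± 0.24 SE, limma adjusted p = 0.0335). It passed without double-knockout replicate 1 and in none of the other 5 fits that left out an array. That value is of 1 probe set whose name marks it as shared between transcripts: it was -0.32 over the mean of the Mdm4 probe sets, -0.05 on a probe set without such a mark and -0.45 with Xist as a covariate, and none of these passed (adjusted p = 0.0852, 0.874 and 1). Usp7, a deubiquitinase of Mdm2 and p53, rose in Fancc-/- from 9.96, 10.12 and 10.07 to 10.43, 10.60 and 10.39 (0.42 ± 0.10, adjusted p = 0.0332), and passed in 1 of 6 such fits, that without Fancc-/- replicate 3. It was 0.20 over the mean of the Usp7 probe sets and 0.23 on a probe set without that mark, and neither passed (adjusted p = 0.382 and 0.325). The list thus had 1 call of 20 in each of these comparisons, near the 4.54% and 5.28% of all genes. In Fancg-/- it had 0 by limma and 2 at an unadjusted p below 0.05, against 7% of all genes. Of 15 tested cell cycle genes that p21 is known to repress through the DREAM complex, 0 passed by limma in any comparison with wild type. In Fancc-/-, Fancg-/- and the double knockout 2, 2 and 1 of them had an unadjusted p below 0.05, against 19.8%, 7% and 24.2% of all genes, and the medians were 0.03, 0.18 and -0.03.

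The genes with log2 values most like those of Cdkn1a over the 12 arrays, by Pearson correlation among the tested genes, were Klf10 (0.94), Rab8b (0.93), Osgin2 (0.93), Dusp16 (0.92) and Ctsl (0.91). Dusp16, a phosphatase of MAP kinases, was at 5.49, 6.47 and 5.97 in wild type and at 7.90, 8.64 and 8.88 in the double knockout. The genes most like Ccng1 were Slc35e1 (0.97), Stx17 (0.96), Etfbkmt (0.92), Bcl2l15 (0.92) and Fig4 (0.91). Of these, Bcl2l15 read 6.79 on Fancc-/- replicate 3 and 3.94 to 5.08 on all other arrays. The genes were picked by these correlations, so by that choice their values follow those of Cdkn1a or of Ccng1. Cdkn1a and Ccng1 themselves correlated at -0.16, so 2 sets with values of 0.91 or more could share no gene.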

How the data were processed

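RNA of unfractionated marrow was amplified from an oligo-dT primer and hybridized as biotin-labelled cRNA, per the labels' protocols. The authors deposited log2 values per probe set; RMA and Partek are named, with no version, per the submitters' processing notes. The probe annotation gave 34945 of 45101 probe sets exactly 1 symbol. Each gene was its probe set of highest mean, tested if above the array median (percentile 50) on at least 3 arrays. limma 3.58.1 in R 4.3.3 fitted 4 group means to the 12 arrays, with a trended moderation of variances (8 residual degrees of freedom). Tests were 2-sided, adjusted by Benjamini-Hochberg over all genes of each of 6 comparisons and called below 0.05, with 95% intervals unadjusted. The code was tested on simulated data. All 8 members are named, with up to 4 called genes per list, comparison and direction, and the 5 genes most like Cdkn1a and Ccng1. Members and lists were chosen with earlier results of these data known. Further probe sets were fitted over all single-symbol probe sets. Alternatives covered filter, probe set, scaling, variance model, weights, covariate, block and left-out arrays.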

Additional observations from a re-analysis of the deposited data

How the results depend on the processing

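Alternatives changed 1 choice each, and 0 named genes past the threshold changed sign. Of the 8 members, 1 (Bbc3) was called in the double knockout against wild type. The count was 0 with no filter on dim probe sets, with the mean of a gene's probe sets, with quantile normalization applied again, with Xist as a covariate and with only the groups compared, 3 with array weights, and 0 to 2 with an array left out. With array weights 28.4% of all genes were called there, and with Xist 0% were. Against Fancc-/- the count of 0 became 4 with array weights and 0 to 1 with an array left out, and against Fancg-/- 2 and 0 to 2. With array weights 14.5% and 18.9% of all genes were called there. In Fancc-/-, in Fancg-/- and in the mean of the knockouts against wild type it was 0 under every alternative run.

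Of the further p53 targets, the 2 called in Fancc-/- became 1 with the filter at the 75th percentile, the mean of probe sets, Xist as covariate or only the groups compared, 4 with quantile normalization again or array weights, and 1 to 2 with an array left out. The 7 in the double knockout became 0 with Xist, 22 with array weights and 1 to 15 with an array left out. The 2 in the mean of the knockouts became 0 with Xist, 5 with the mean of probe sets, 10 with array weights and 1 to 6 with an array left out. The 0 in Fancg-/- became 1 with array weights. The members' median in Fancg-/-, 0.05, was -0.13 to 0.18 with an array left out and 0.22 without both arrays that carry signal for Xist and Eif2s3y, chosen after seeing the data. Without a spacer between half-sites, 0 of the members' windows held a pair of exact matches in place of 1.

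The replicate numbers did not pair the arrays: deviations of same-numbered arrays correlated from -0.37 to 0.20. With the replicate number as a block, the double knockout had 1 member called and 6 further targets, Fancc-/- 1 further target and the mean of the knockouts 2. The intervals printed with each member give what 3 arrays per group could resolve, and dim probe sets were not tested.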
